A study of Oryzias latipes with 18 samples.

Results

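The comparison described here set testes of control lineage medaka kept in water with PFOS at 0.002 mg/L against testes of control lineage medaka kept without PFOS. It was chosen by the lineage and concentration in the sample labels, which gave 6 of the 18 libraries of the study, 3 biological replicates in each group. One of these 6, the library labelled replicate 2 at 0.002 mg/L, was dominated by oocyte transcripts. Results are therefore given from replicates 1 and 3 at 0.002 mg/L (n = 2) against replicates 1, 2 and 3 at 0 mg/L (n = 3), and then with replicate 2 included.

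The study crossed a control lineage, with no ancestral exposure, and a lineage whose ancestors met bisphenol A (BPA) at 10 µg/L, 4 generations earlier, with 21 days in water that held no PFOS or PFOS at either 0.002 or 0.02 mg/L. PFOS, perfluorooctane sulfonate, is a persistent surfactant that binds serum proteins and is known in rodents to activate fatty acid receptors of the liver. The labels call the replicates biological but do not say how many fish or tanks stand behind each one, so p-values measure the spread between these samples only. All libraries came from tissue labelled testis, and no library was a sorted cell type.

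In the fish testis, germ cells develop inside cysts formed by Sertoli cells, which nurse them, secrete Amh and Gsdf and seal the cyst with claudin-based junctions. Leydig cells between the tubules turn cholesterol into androgens, and smooth muscle, matrix and vessels make up the wall. Immediate-early genes such as the fos, jun and egr families encode transcription factors that cells of many kinds switch on within minutes of a stimulus without new protein synthesis.

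Values are normalized reads, that is, gene read counts divided by a size factor for each library. Differences are on the scale of log2(normalized reads + 1), 0.002 minus 0 mg/L, ± SE from limma fitted to the 17 libraries without replicate 2 at 0.002 mg/L. Adjusted p is by Benjamini-Hochberg over 18792 genes, and rose or fell is written of genes with an adjusted p under 0.05. The 6 libraries held 27.4 to 35.2 M reads.

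Testis markers were present in both groups. The Sertoli cell gene amh (loci ENSORLG00000015951 and ENSORLG00000005044), gsdf and the male-determining gene dmy were all measured, and gsdf had 31354 and 15527 normalized reads at 0.002 mg/L, against 30707, 30269.7 and 25970 at 0 mg/L. Replicate 2 at 0.002 mg/L stood apart. Members of the oocyte and ovary list summed to 949096 normalized reads in it, against 6197 and 9736 in the other libraries of its group and 4669 to 6922 at 0 mg/L. On the log2 scale over genes its correlation with the other 5 libraries ran from 0.729 to 0.779, and those 5 correlated with each other at 0.883 to 0.957. Among these, replicate 2 at 0 mg/L correlated at 0.938 and 0.936 with replicates 1 and 3 of its own group. With replicates 1 and 3 at 0.002 mg/L it correlated at 0.956 and 0.927.

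The 0 mg/L group was uneven in another respect. Its replicates 1 and 3 carried transcripts of gut and kidney, organs that lie near the testis. The mean level of these marker lists, on the log2 scale relative to the 17-library mean, was -0.44 and -0.39 in replicates 1 and 3 at 0.002 mg/L, against 2.36, -0.11 and 1.5 in replicates 1, 2 and 3 at 0 mg/L. In the other 4 groups of the study it lay between -0.55 and 0.47. The pancreas and liver level was -0.19 and -1.24 in replicates 1 and 3 at 0.002 mg/L, against 1.1, 1.96 and 0.60 at 0 mg/L, where replicates 1 and 2 exceeded the highest value of the other 4 groups, 0.68. Replicate 2 is thus the sole 0 mg/L library of this lineage with gut and kidney levels inside the range of the other groups, but not with such a pancreas and liver level, and differences from it alone are given where they bear on a result.

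**Figure D1:**
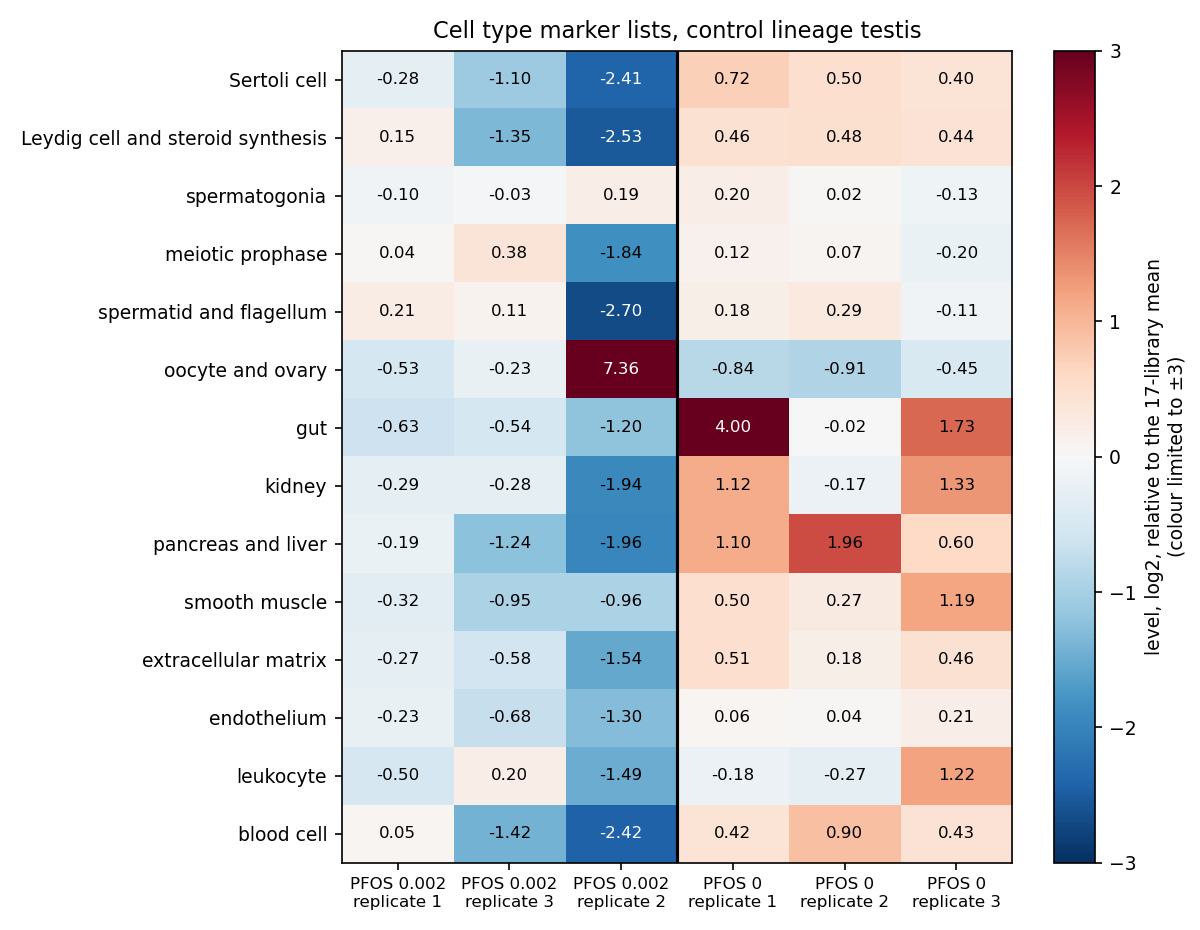
Heat map of the mean level of each cell type marker list (rows) in each library (columns), on the log2 scale relative to the 17-library mean; the 3 libraries at 0.002 mg/L stand left of the 3 at 0 mg/L. The oocyte and ovary list reaches 7.36 in replicate 2 at 0.002 mg/L, and the gut list 3.999 and 1.73 in replicates 1 and 3 at 0 mg/L.

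Among the genes called in testes kept at 0.002 mg/L, abundant ones rose by small amounts and scarcer ones fell by larger amounts. Only called genes are compared here, and a gene with a larger SE needs a larger difference to be called. Of 18792 genes 863 passed, or 4.59%, with 349 higher (1.86%) and 514 lower (2.74%). The median difference was 1.002 among the rises and -2.10 among the falls, and 0.01 over all genes, of which 50.7% had a positive difference. A log2 difference of at least 2 was reached by 25 of the rises, or 7.16%, and by 273 of the falls, or 53.1%. The median level over all 18 libraries was 1371 normalized reads for genes that rose and 159 for genes that fell, against 370 for all genes tested.

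Replicate 3 at 0.002 mg/L lay further from the 0 mg/L group than replicate 1 for most of them. It was the lower library of its group in 434 of the 514 falls and the higher one in 300 of the 349 rises. Over all genes tested replicate 3 was the higher in 52.6%. The libraries of the groups did not overlap for 862 of the 863 called genes, which the selection itself favours. Over all genes both libraries at 0.002 mg/L lay above all 3 at 0 mg/L in 25.4% and below them in 23.3%.

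The calls depended on single libraries. Leaving out a 0 mg/L library gave 4 calls for replicate 1, 1401 for replicate 2 and 39 for replicate 3. Leaving out a 0.002 mg/L library gave 792 calls for replicate 1 and 6 for replicate 3. A fit with the gut and kidney level as a term called 1 gene, 0 higher (0%) and 1 lower (0.00532%), with 1674 at an unadjusted p under 0.05. All named calls below, other than those of cldn15la, fn1b, gnsb and c7b, are lost without replicate 1 at 0 mg/L.

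With replicate 2 at 0.002 mg/L included, 1476 genes passed, 506 higher (2.69%) and 970 lower (5.16%), and the median over all genes was -0.15. Calls in both fits numbered 544, with 168 rises and 376 falls, and 0 genes were called in opposite directions. The second fit holds all 17 libraries of the first, which favours this overlap and a shared direction in advance. That library lay above all 3 libraries at 0 mg/L for 203 of the 349 rises, or 58.2%, against 35.7% of all genes. It lay below them for 384 of the 514 falls, or 74.7%, against 53% of all genes.

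The genes cldn15la, fn1b and gnsb were called in the 17-library fit and in each fit without 1 of the 0 mg/L libraries, and gnsb was picked out after its values were seen. The claudin gene cldn15la (ENSORLG00000006634), whose product forms paracellular pores in fish intestine, had 5.62 and 5.02 normalized reads at 0.002 mg/L, against 1675, 155 and 496 at 0 mg/L. Its difference was -6.33 ± 0.77 (adjusted p = 0.00543), and replicate 2 at 0.002 mg/L had 2.701. At 0 mg/L it was ordered as the gut and kidney level was, highest in replicate 1 and lowest in replicate 2. With that level as a term its difference was -4.24 and was not called. That level includes cldn15la itself, and the fit called 1 gene in all, so it cannot decide the part of gut tissue. That part was not otherwise tested.

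The fibronectin gene fn1b (ENSORLG00000003862), which encodes an adhesive protein of the matrix, had 220 and 117 normalized reads at 0.002 mg/L, against 758, 1268 and 1916 at 0 mg/L. It fell by 2.92 ± 0.46 (adjusted p = 0.0128), and it had 58.1 in replicate 2 at 0.002 mg/L. Replicate 1 was the lowest of the 0 mg/L group for fn1b. The gene gnsb (ENSORLG00000000857), for a lysosomal sulfatase that degrades heparan sulfate, had 509 and 479 normalized reads at 0.002 mg/L, against 1795, 1468 and 1351 at 0 mg/L, a difference of -1.63 ± 0.22 (adjusted p = 0.00777). Replicate 2 at 0.002 mg/L broke with this, at 1988, and with it gnsb did not pass (adjusted p = 0.112). Without replicate 3 at 0.002 mg/L the adjusted p was 0.102 for gnsb, 0.256 for fn1b and 0.0407 for cldn15la.

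The 3 largest rises that met the naming rule were immediate-early genes. Of 45 measured members of this list 5 rose (c-fos, fosb, dusp2, klf11a and klf6a) and 2 fell (btg1 and SGK1). These were 11.1% and 4.44%, against 1.86% and 2.74% of all genes. Both libraries at 0.002 mg/L exceeded all 3 at 0 mg/L for 19 members, or 42.2%, and lay below them for 6, or 13.3%, against 25.4% and 23.3% of all genes. The median of the list was 0.47, against 0.01 for all genes.

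The c-fos gene (ENSORLG00000024739), whose product pairs with Jun proteins to form the AP-1 factor, had 7982 and 2516 normalized reads at 0.002 mg/L, against 35.0, 79.3 and 82.4 at 0 mg/L. Its difference was 6.17 ± 1.37 (adjusted p = 0.0343). The means were 5249 ± 3866 at 0.002 mg/L (SD, n = 2) and 65.6 ± 26.5 at 0 mg/L (SD, n = 3), so the groups lay far apart and the treated libraries far from each other. Its relative fosb had 2974 and 585 normalized reads at 0.002 mg/L, against 46.5, 84.2 and 60.1 at 0 mg/L (4.40 ± 1.01, adjusted p = 0.0320).

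The gene dusp2, for a nuclear phosphatase that switches off MAP kinases, had 309 and 157 normalized reads at 0.002 mg/L, against 23.6, 18.6 and 34.4 at 0 mg/L (3.10 ± 0.82, adjusted p = 0.0440). For the Krüppel-like factor klf11a, a transcriptional repressor in TGF-beta signalling, the values were 406 and 1175 normalized reads at 0.002 mg/L, against 152, 179 and 80.7 at 0 mg/L (2.40 ± 0.54, adjusted p = 0.0291). Another member of that family, klf6a, had 1703 and 1029 at 0.002 mg/L, against 670, 590 and 878 at 0 mg/L (0.91 ± 0.24, adjusted p = 0.0435). Replicate 1 at 0.002 mg/L was the higher library for c-fos, fosb, dusp2 and klf6a, and replicate 3 for klf11a.

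Other classical members had separate groups but did not pass. The Jun-family gene junbb had 5874 and 1898 normalized reads at 0.002 mg/L, against 199, 184 and 317 at 0 mg/L, a difference of 3.88 ± 1.18 (adjusted p = 0.0715). The zinc-finger factor gene egr1 had 1258 and 348 at 0.002 mg/L, against 45.8, 84.2 and 92.8 at 0 mg/L, a difference of 3.20 ± 0.94 (adjusted p = 0.0613). Differences were 3.10 for ier2b, 2.65 for the orphan receptor gene nr4a1 and 2.46 for jun, with adjusted p from 0.0763 to 0.139. The list was not uniform: egr2b, fosaa and atf3, an AP-1 partner induced by stress, had differences of -0.68, -0.23 and -0.65 and did not pass.

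The called falls in the list were of a different kind. The antiproliferative gene btg1 had 343 and 104 normalized reads at 0.002 mg/L, against 817, 582 and 1408 at 0 mg/L (-2.21 ± 0.49, adjusted p = 0.0291). The kinase gene SGK1, a target of glucocorticoids, had 756 and 250 at 0.002 mg/L, against 1361, 1245 and 1417 at 0 mg/L (-1.62 ± 0.39, adjusted p = 0.0343).

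The library with oocyte transcripts divided these genes. It had 3481 normalized reads of c-fos and 4712 of dusp2, above all 3 libraries at 0 mg/L, but 33.8 of fosb, 32.4 of egr1, 48.6 of jun and 14.9 of ier2b, below all 3. With it 4 members rose and 2 fell, where 2.69% and 5.16% of all genes did, and the median was -0.06. Against replicate 2 at 0 mg/L alone the differences were 5.80 for c-fos, 3.95 for fosb and 3.49 for dusp2, and the median of the list was 0.38. Without replicate 1 at 0 mg/L the adjusted p was 0.116 for c-fos and 0.110 for fosb, and without replicate 3 at 0.002 mg/L it was 0.309 and 0.246.

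**Figure D2:**
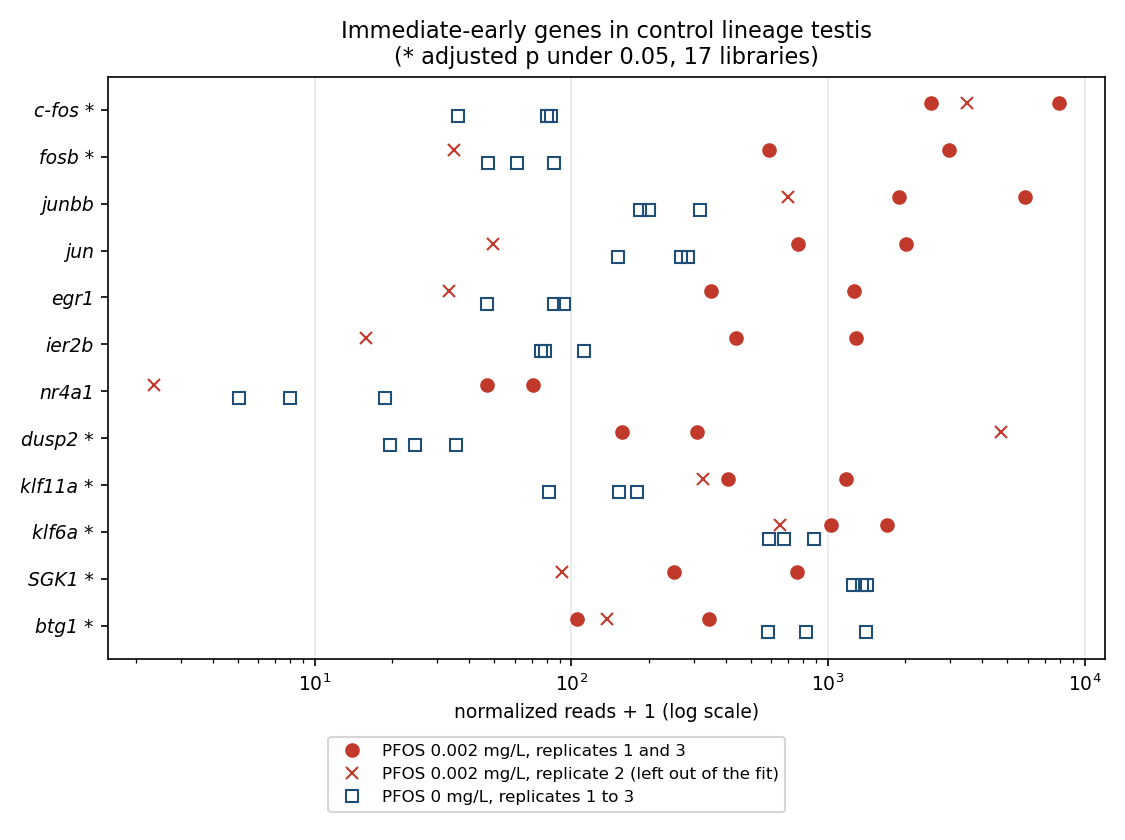
Normalized reads + 1 (horizontal log axis) of 12 immediate-early genes in each library, with the libraries at 0.002 mg/L (filled circles, and a cross for replicate 2) above those at 0 mg/L (open squares). The filled circles of c-fos, at 7982 and 2516 normalized reads, lie far right of the squares, and the crosses of fosb, jun, egr1, ier2b and nr4a1 lie left of theirs.

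Several genes of the somatic cells of the testis fell. Of 13 Sertoli cell members 3 fell (cldn11a, inha and fshr), or 23.1% against 2.74% of all genes, and 0 rose. All 13 had negative differences, with a median of -0.61, while 50.7% of all genes had positive ones. The level of this list was -0.28 and -1.10 in replicates 1 and 3 at 0.002 mg/L, against 0.72, 0.50 and 0.40 at 0 mg/L. In tissue libraries fewer cells of a type and less RNA per cell cannot be told apart, here and for every list below.

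The claudin gene cldn11a, for the strand protein of the Sertoli cell barrier, had 1115 and 176 normalized reads at 0.002 mg/L, against 3067, 2402 and 3347 at 0 mg/L. It fell by 2.71 ± 0.68 (adjusted p = 0.0407), and replicate 3 at 0.002 mg/L was much the lower. The receptor gene fshr, through which follicle-stimulating hormone acts on these cells, had 1470 and 621 at 0.002 mg/L, against 2985, 2672 and 2076 at 0 mg/L (-1.41 ± 0.38, adjusted p = 0.0452). The inhibin subunit gene inha had 387 and 137 at 0.002 mg/L, against 825, 665 and 632 at 0 mg/L (-1.60 ± 0.43, adjusted p = 0.0449).

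Members that mark Sertoli cell identity had smaller differences, none of them called. These were -0.39 for gsdf, -0.32 for dmy, -0.54 for sox9 and -0.61 for amh (ENSORLG00000015951), with adjusted p from 0.184 to 0.576. With replicate 2 at 0.002 mg/L 4 members were called lower, where 5.16% of all genes were, and the median was -1.38. The list level in that library was -2.41. Against replicate 2 at 0 mg/L alone the median was -0.59.

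In the steroid synthesis list 9 of 10 members had negative differences, and 1 fell, or 10% against 2.74% of all genes. That was the enzyme gene cyp17, which encodes the hydroxylase and lyase at the branch to androgens. It had 5945 and 1341 normalized reads at 0.002 mg/L, against 9119, 12591 and 10982 at 0 mg/L (-1.94 ± 0.42, adjusted p = 0.0291), and 429 in replicate 2 at 0.002 mg/L. The level of the list was 0.15 and -1.35 in replicates 1 and 3 at 0.002 mg/L, against 0.46, 0.48 and 0.44 at 0 mg/L, so that replicate 3 carried most of the difference.

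Most other steps of this pathway had negative differences without passing. The 11-beta-hydroxylase gene cyp11b, needed for 11-ketotestosterone, the main androgen of fish, had 957 and 317 normalized reads at 0.002 mg/L, against 1709, 1536 and 1174 at 0 mg/L (-1.40 ± 0.41, adjusted p = 0.0571). The dehydrogenase gene 3bhsd gave -1.84 (adjusted p = 0.0704). The luteinizing hormone receptor gene lhcgr gave -1.59 and the cholesterol carrier gene star -0.99 (adjusted p = 0.137 and 0.389). For star replicate 1 had 1008 normalized reads and replicate 3 had 226 at 0.002 mg/L, against 942, 1096 and 837 at 0 mg/L, so that the groups overlapped.

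The median of the steroid synthesis list was -1.30. With replicate 2 at 0.002 mg/L 4 members were called lower, where 5.16% of all genes were, and the median was -2.07. Against replicate 2 at 0 mg/L alone it was -1.24. Without replicate 1 at 0.002 mg/L, which leaves replicate 3 alone in its group, the median was -2.17, and without replicate 3 it was -0.40.

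Some receptors for these and other hormones fell as well. Of 28 steroid, thyroid and retinoid receptor members 3 fell, or 10.7% against 2.74% of all genes, and 0 rose. The median was -0.73, and 15 members, or 53.6% against 23.3% of all genes, lay below all 3 libraries at 0 mg/L. The estrogen receptor gene esr1 had 111 and 51.1 normalized reads at 0.002 mg/L, against 315, 431 and 264 at 0 mg/L (-2.11 ± 0.58, adjusted p = 0.0472). The orphan receptor gene nr2f1a, a COUP-TF, had 49.9 and 25.1 at 0.002 mg/L, against 145, 175 and 159 at 0 mg/L (-2.14 ± 0.48, adjusted p = 0.0299).

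Of the loci named esr2, 1 passed, with 142 and 34.3 normalized reads at 0.002 mg/L, against 201, 206 and 258 at 0 mg/L (-1.64 ± 0.44, adjusted p = 0.0462). The other esr2 locus, at -2.51, did not (adjusted p = 0.0527). The androgen receptor gene ar, with 31.6 and 9.21 normalized reads at 0.002 mg/L, against 81.5, 42.1 and 45.8 at 0 mg/L, did not pass (-1.59 ± 0.77, adjusted p = 0.193). With replicate 2 at 0.002 mg/L 7 receptors were called lower, where 5.16% of all genes were, and the median was -1.02.

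A minority of matrix and contractile genes fell. Of 31 extracellular matrix members 18 lay below all 3 libraries at 0 mg/L, or 58.1% against 23.3% of all genes, and the median was -0.77. Falls were called for 5, or 16.1% against 2.74% of all genes, and 0 rose. Beside fn1b these were the basement membrane collagen col18a1a, the fibrillar collagens col5a1 and col5a2a and the proteoglycan gene dcn, decorin. The gene col5a2a had 115 and 36.0 normalized reads at 0.002 mg/L, against 544, 240 and 326 at 0 mg/L (-2.42 ± 0.41, adjusted p = 0.0154). The gene col18a1a had 94.2 and 103 at 0.002 mg/L, against 623, 466 and 887 at 0 mg/L (-2.68 ± 0.54, adjusted p = 0.0291).

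The major collagen genes col1a2 and col1a1b had differences of -0.42 and -0.97, and neither was called. Of 15 smooth muscle members 2 fell, or 13.3% against 2.74% of all genes. These were the myosin heavy chain gene myh11a (1636 and 626 normalized reads at 0.002 mg/L, against 2808, 2275 and 3709 at 0 mg/L) and the tropomyosin gene TPM1 (1120 and 724 at 0.002 mg/L, against 2547, 1685 and 3082 at 0 mg/L). Their differences were -1.50 ± 0.36 and -1.39 ± 0.28 (adjusted p = 0.0364 and 0.0291). The smooth muscle median was -1.24, and -1.02 against replicate 2 at 0 mg/L alone.

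Smooth muscle and matrix belong to the gut wall as well as to the testis, and the smooth muscle level was 0.50, 0.27 and 1.19 in replicates 1, 2 and 3 at 0 mg/L. The part of gut wall in these differences was not tested. The fit with the gut and kidney term called 1 gene in all, so the loss of these calls in it cannot decide that part. With that term the median was -0.96 for smooth muscle and -0.55 for matrix. With replicate 2 at 0.002 mg/L 8 matrix and 6 smooth muscle members were called lower, where 5.16% of all genes were. In the smaller vessel list 1 of 16 members fell, or 6.25% against 2.74% of all genes. This was the scavenger receptor gene stab1 (252 and 106 normalized reads at 0.002 mg/L, against 446, 339 and 452 at 0 mg/L, -1.32 ± 0.37, adjusted p = 0.0489). None of 20 leukocyte and 5 blood cell members passed, where 4.59% of all genes did. The medians of these lists were -0.87 and -0.97, against 0.01 for all genes.

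Germ cell lists had small medians. These were 0.26 for 14 spermatogonial members, 0.33 for 16 of meiotic prophase, 0.29 for 14 of the piRNA pathway and 0.10 for 38 of spermatids and flagella. In the same order 64.3%, 68.75%, 85.7% and 63.2% of members had positive differences, against 50.7% of all genes. Both libraries at 0.002 mg/L lay above all 3 at 0 mg/L for 35.7%, 56.25%, 42.9% and 26.3%, against 25.4% of all genes. Both lay below them for 21.4%, 18.75%, 7.14% and 10.5%, against 23.3%. These lists held 3 calls in all, where 4.59% of all genes were called. Falls took 7.14% of spermatogonial and 2.63% of spermatid members, against 2.74% of all genes. Rises took 6.25% of meiotic prophase members, against 1.86%. Each of these shares rests on 1 gene. The meiotic gene tex11, whose product is needed for crossover formation in mice, had 11283 and 13345 normalized reads at 0.002 mg/L, against 5109, 8047 and 7159 at 0 mg/L (0.88 ± 0.20, adjusted p = 0.0291). The recombinase gene dmc1 gave the same difference, 0.88 ± 0.25, and did not pass (adjusted p = 0.0522).

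The spermatogonial marker gene id4 had 31.6 and 28.5 normalized reads at 0.002 mg/L, against 163, 68.0 and 281 at 0 mg/L (-2.25 ± 0.53, adjusted p = 0.0320). Against replicate 2 at 0 mg/L alone, the lowest of its group, both libraries at 0.002 mg/L were still lower. With the gut and kidney level as a term the difference of id4 was -1.39 and was not called, in a fit that called 1 gene in all. The germ cell helicase gene ddx4 went the other way, with 39749 and 48316 normalized reads at 0.002 mg/L, against 26961, 28149 and 21983 at 0 mg/L, and did not pass (0.78 ± 0.23, adjusted p = 0.0593).

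The factor gene rfx2, which drives ciliary genes in spermatids of mice, had 572 and 493 normalized reads at 0.002 mg/L, against 2666, 1814 and 1964 at 0 mg/L (-1.99 ± 0.44, adjusted p = 0.0291). It was the sole call among 38 spermatid and flagellum members, of which 24, or 63.2%, had positive differences, against 50.7% of all genes. The median of this list turned to -0.09 against replicate 2 at 0 mg/L alone, and to -0.01 with the gut and kidney term. The phospholipase gene PLCZ1, known in mammals as the sperm factor that activates the egg, was among the most abundant falls. It had 4781 and 1948 normalized reads at 0.002 mg/L, against 7355, 8343 and 5964 at 0 mg/L (-1.23 ± 0.33, adjusted p = 0.0449). The endoplasmic reticulum chaperone gene clgn, needed in mice for sperm that bind eggs, was among the most abundant rises, with 12632 and 20084 at 0.002 mg/L, against 8869, 9971 and 8058 at 0 mg/L (0.83 ± 0.23, adjusted p = 0.0494).

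Replicate 2 at 0.002 mg/L was low for most of these genes, with a spermatid list level of -2.70 and a meiotic prophase level of -1.84. With it tex11 no longer rose (-0.10, adjusted p = 0.910), and the medians were -0.34 for meiotic prophase and -0.95 for spermatids. In that fit 3 spermatid members were called lower, where 5.16% of all genes were. The fall of rfx2 was -2.61 with it (adjusted p = 0.0231), that library having 146 normalized reads.

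Of 64 cell cycle members 3 rose (birc5b, mki67 and pkmyt1), or 4.69% against 1.86% of all genes. A fall was called for 1 (racgap1), or 1.56% against 2.74%. Positive differences were held by 48 members, or 75.0% against 50.7% of all genes, and 29 lay above all 3 libraries at 0 mg/L, or 45.3% against 25.4%. The median was 0.30, and 0.14 against replicate 2 at 0 mg/L alone. The proliferation marker gene mki67 had 13783 and 16716 normalized reads at 0.002 mg/L, against 7524, 9527 and 6720 at 0 mg/L (0.95 ± 0.23, adjusted p = 0.0350). The kinase gene pkmyt1, which restrains entry into mitosis, had 2217 and 2516 at 0.002 mg/L, against 1234, 1920 and 1344 at 0 mg/L (0.68 ± 0.19, adjusted p = 0.0489).

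The survivin gene birc5b was rare, with 23.2 and 87.1 normalized reads at 0.002 mg/L, against 1.91, 8.90 and 6.87 at 0 mg/L (2.92 ± 0.64, adjusted p = 0.0291). In replicate 2 at 0.002 mg/L it had 25600, and with it the difference was 5.96. The gene racgap1, for a protein of the cytokinetic spindle, had 1267 and 916 at 0.002 mg/L, against 3935, 4238 and 2743 at 0 mg/L (-1.73 ± 0.39, adjusted p = 0.0293). Both mki67 and pkmyt1 failed to pass with replicate 2 at 0.002 mg/L (adjusted p = 0.338 and 0.355).

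Of 65 nuclear-encoded oxidative phosphorylation members 54 had positive differences, or 83.1% against 50.7% of all genes. For 40 of them, or 61.5% against 25.4%, both libraries lay above all 3 at 0 mg/L, and the median was 0.36. One rose, or 1.54% against 1.86% of all genes, the cytochrome oxidase subunit gene cox4i2, with 2050 and 2779 normalized reads at 0.002 mg/L, against 1052, 1584 and 1209 at 0 mg/L (0.92 ± 0.23, adjusted p = 0.0393). With replicate 2 at 0.002 mg/L 5 were called higher, where 2.69% of all genes were, and the median was 0.67. Against replicate 2 at 0 mg/L alone it was 0.26. The cytosolic ribosomal proteins, with 0 of 63 called, had a median of 0.01.

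Of 76 BMP, TGF-beta and Wnt members 4 rose, or 5.26% against 1.86% of all genes. A fall was called for 1, or 1.32% against 2.74%, and the median was -0.19. The ligand gene tgfb1a had 2585 and 2690 normalized reads at 0.002 mg/L, against 1017, 1399 and 1207 at 0 mg/L (1.14 ± 0.23, adjusted p = 0.0291). The ligand gene tgfb3 went the other way, with 97.0 and 42.7 at 0.002 mg/L, against 181, 202 and 371 at 0 mg/L (-1.87 ± 0.49, adjusted p = 0.0417). The Wnt receptor gene fzd3a had 1378 and 1846 at 0.002 mg/L, against 499, 727 and 722 at 0 mg/L (1.32 ± 0.25, adjusted p = 0.0233).

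The Wnt effector gene tcf7l2 had 1620 and 2264 normalized reads at 0.002 mg/L, against 821, 923 and 900 at 0 mg/L (1.12 ± 0.25, adjusted p = 0.0291). The zinc-finger regulator gene mecom had 329 and 370 at 0.002 mg/L, against 54.1, 67.2 and 180 at 0 mg/L (1.99 ± 0.55, adjusted p = 0.0476). With replicate 2 at 0.002 mg/L, which had 289 of tgfb1a and 598 of tcf7l2, these 2 no longer passed (0.08 and 0.56, adjusted p = 0.937 and 0.288). The calls of fzd3a, mecom and tgfb3 held with that library, which had 5088, 2999 and 9.45 normalized reads of them. For fzd3a and mecom these values lay far above those of replicates 1 and 3 at 0.002 mg/L.

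Among 57 chromatin and DNA methylation members 1 rose, or 1.75% against 1.86% of all genes, and 2 fell, or 3.51% against 2.74%. The histone deacetylase gene HDAC2 had 3635 and 4451 normalized reads at 0.002 mg/L, against 1669, 2249 and 1979 at 0 mg/L (1.04 ± 0.25, adjusted p = 0.0364). The demethylation enzyme gene tet2 had 72.4 and 56.1 at 0.002 mg/L, against 170, 146 and 207 at 0 mg/L (-1.42 ± 0.39, adjusted p = 0.0472). The chromatin remodeller subunit gene actl6a had 451 and 411 at 0.002 mg/L, against 1558, 900 and 983 at 0 mg/L (-1.37 ± 0.38, adjusted p = 0.0499). All 3 were also called with replicate 2 at 0.002 mg/L.

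Some lists for pathways that PFOS is known to engage in rodent liver held few calls, as did all genes (4.59%). The xenobiotic metabolism list, with 4 of 20 members called lower, is described further below. None of 44 PPAR and fatty acid oxidation members passed, with a median of -0.10, and 0 did among 27 members of p53 and apoptosis. Of 36 cholesterol members 1 rose, or 2.78% against 1.86% of all genes. It was npc1, for the lysosomal cholesterol transporter, with 1707 and 2374 normalized reads at 0.002 mg/L, against 1144, 1293 and 1234 at 0 mg/L (0.72 ± 0.18, adjusted p = 0.0376). Among 39 antioxidant and heat shock members 1 fell, or 2.56% against 2.74% of all genes. This was the small chaperone gene hspb8, with 6.33 and 4.19 at 0.002 mg/L, against 56.0, 26.7 and 77.3 at 0 mg/L (-3.01 ± 0.63, adjusted p = 0.0291). It did not pass with replicate 2 at 0.002 mg/L (adjusted p = 0.238).

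**Figure D3:**
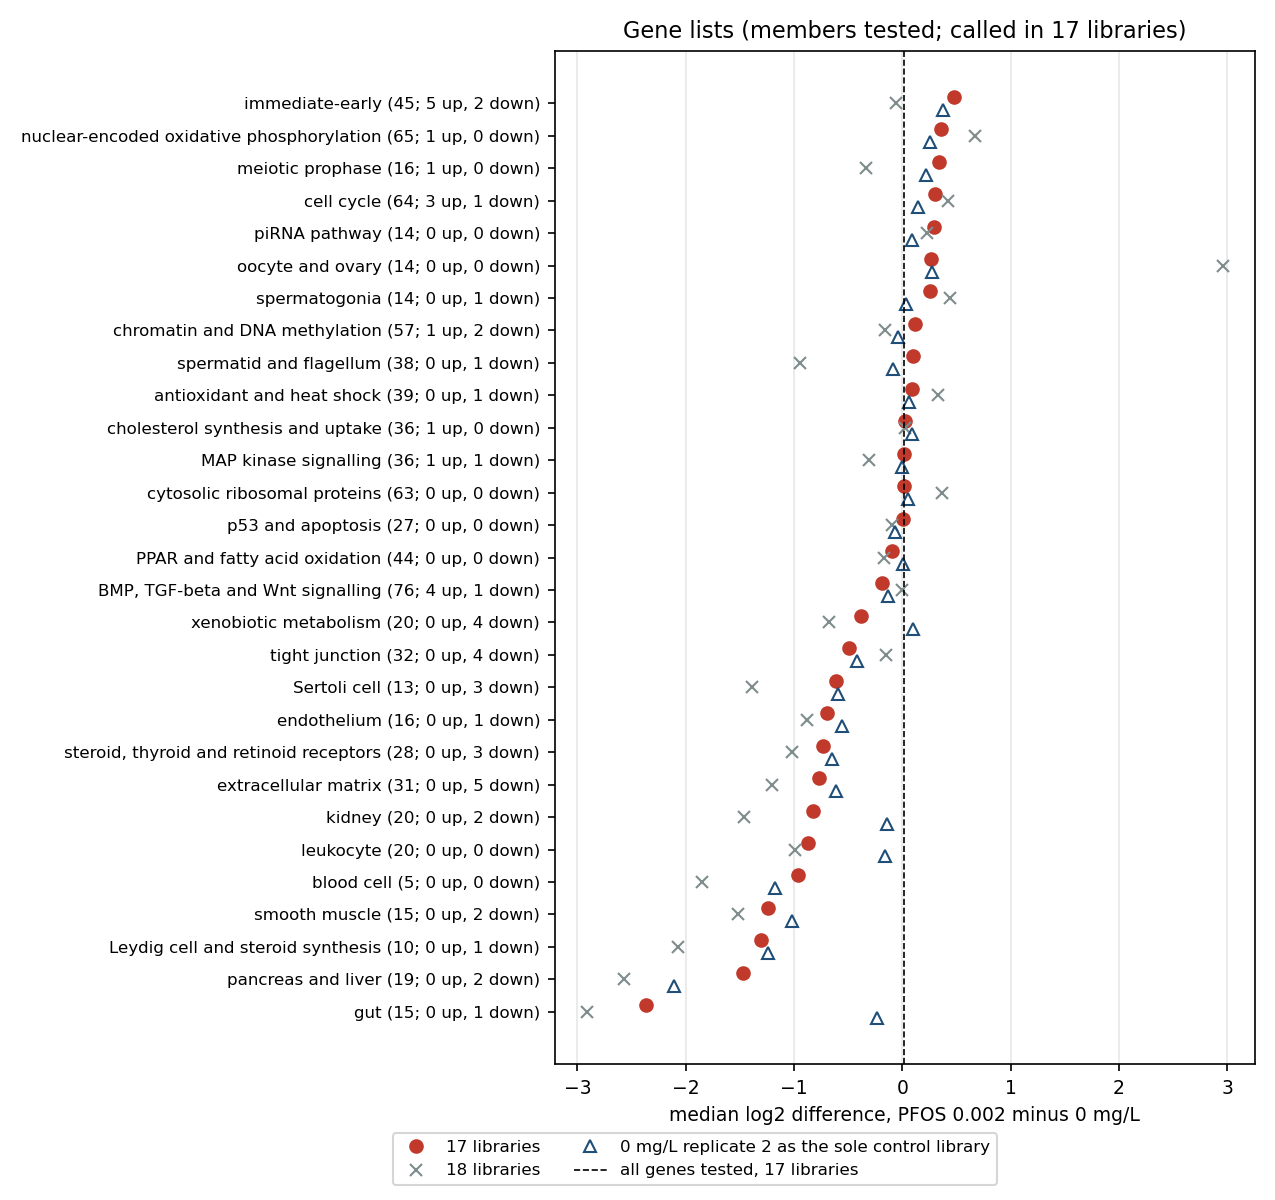
Median log2 difference (0.002 minus 0 mg/L) of the 29 gene lists, from 17 libraries (circles), 18 libraries (crosses) and with replicate 2 as the sole 0 mg/L library (triangles); row labels give members tested and called, and the dashed line is the median of all genes. The gut list moves from the far left to near the line with the sole library, while the steroid synthesis list stays at -1.30 and -1.24.

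Of the 15 largest falls that met the naming rule, cldn15la is a member of the gut list, slc12a1 of the kidney list and 2 loci named cyp2n13 of the xenobiotic metabolism list. Falls were called for 1 of 15 gut members (6.67%), 2 of 20 kidney members (10%) and 4 of 20 xenobiotic metabolism members (20%). Over all genes the share was 2.74%. The cytochrome P450 gene cyp3a, which oxidises drugs and steroids, had 1.41 and 0 normalized reads at 0.002 mg/L, against 1368, 4.86 and 131 at 0 mg/L (-6.04 ± 1.52, adjusted p = 0.0389). The nuclear receptor gene hnf4a, of gut, kidney and liver, had 10.5 and 6.70 at 0.002 mg/L, against 472, 27.5 and 83.6 at 0 mg/L (-3.47 ± 0.83, adjusted p = 0.0350). The tight junction gene cldnk had 2.81 and 0.837 at 0.002 mg/L, against 63.0, 13.8 and 124 at 0 mg/L (-4.21 ± 0.91, adjusted p = 0.0291). In each of these 3 genes replicate 2 was the lowest of the 0 mg/L group. Values this low depend on the pseudocount, so the fitted differences are no measure of fold.

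Medians against replicate 2 at 0 mg/L alone were -0.24 for the gut list and -0.14 for the kidney list, against -2.37 and -0.83 with all 3 controls. For xenobiotic metabolism the corresponding values were 0.10 and -0.38. Over all 514 falls replicate 2 was the lowest 0 mg/L library in 289, or 56.2%, against 31.3% of all genes tested. Over all 349 rises it was the highest 0 mg/L library in 234, or 67.0%, against 35.7% of all genes tested. In 338 of the 514 falls replicate 2 at 0 mg/L had more than 2-fold the reads of both libraries at 0.002 mg/L. The falls were called with this library among the controls, so the selection itself favours that count.

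For the pancreas and liver list, replicate 2 at 0 mg/L had the highest mean log2 level, and replicate 1 the highest sum of reads, 51964 against 8412 in replicate 2 and 3563 in replicate 3. Of 19 members 2 fell, or 10.5% against 2.74% of all genes. The median was -1.47, and -2.11 against replicate 2 at 0 mg/L alone. The pancreatic elastase gene ela2l had 33.0 and 5.86 normalized reads at 0.002 mg/L, against 95.5, 316 and 105 at 0 mg/L (-3.27 ± 0.72, adjusted p = 0.0291). The liver fatty acid carrier gene fabp10a had 9.14 and 5.02 at 0.002 mg/L, against 31.8, 111 and 173 at 0 mg/L (-3.46 ± 0.95, adjusted p = 0.0472).

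At 0 mg/L cyp1c2 and prf1.5 were ordered as the gut and kidney level was, and zgc:109949 was highest in replicate 2. The P450 gene cyp1c2, of the dioxin-inducible CYP1 family, had 86.5 and 33.5 normalized reads at 0.002 mg/L, against 369, 247 and 329 at 0 mg/L (-2.50 ± 0.46, adjusted p = 0.0210). The gene zgc:109949 (ENSORLG00000015528) had 19.7 and 2.51 at 0.002 mg/L, against 302, 353 and 187 at 0 mg/L (-4.997 ± 0.79, adjusted p = 0.0128). The perforin-like gene prf1.5, of a family whose members puncture target cells, had 154 and 5.86 at 0.002 mg/L, against 1145, 467 and 834 at 0 mg/L (-4.55 ± 1.004, adjusted p = 0.0300).

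The glycolytic gene gapdh, often taken as a constant reference, had 370 and 152 normalized reads at 0.002 mg/L, against 4654, 1746 and 4705 at 0 mg/L (-3.82 ± 0.57, adjusted p = 0.0128). Replicate 2 at 0.002 mg/L had 58029 normalized reads of it, so that with that library the difference was -1.18 and did not pass (adjusted p = 0.565).

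**Figure D4:**
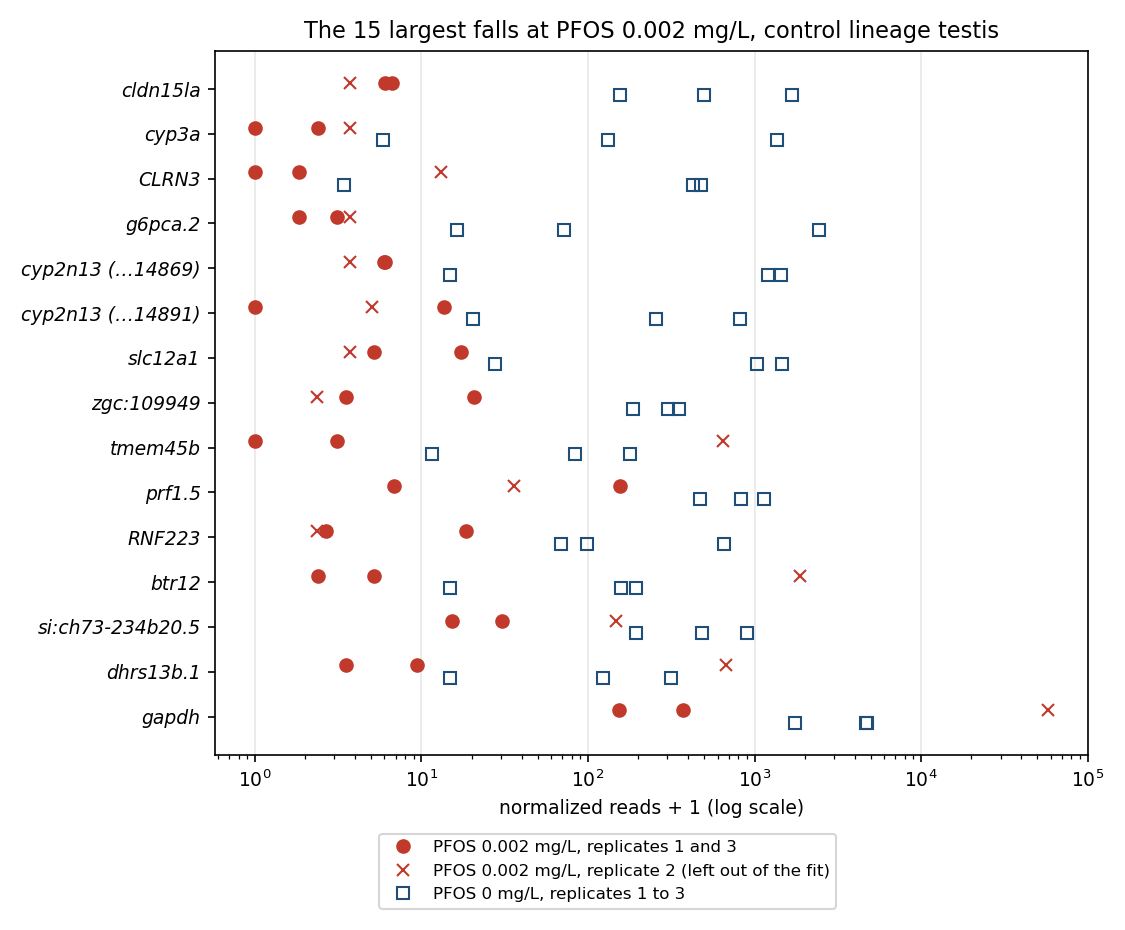
Normalized reads + 1 (horizontal log axis) of the 15 largest falls that met the naming rule, with libraries at 0.002 mg/L (filled circles, and a cross for replicate 2) above those at 0 mg/L (open squares). The naming rule leaves out genes whose groups overlap, so all squares lie right of the filled circles for every gene. For cyp3a, CLRN3 and slc12a1 1 square lies near the circles, and the squares of zgc:109949 lie between 187 and 353 normalized reads.

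Other genes among the largest rises included lmo1, en2 and v1ar1. The LIM-domain gene lmo1, a transcriptional cofactor, had 593 and 1126 normalized reads at 0.002 mg/L, against 138, 63.1 and 163 at 0 mg/L (2.85 ± 0.48, adjusted p = 0.0154). The homeobox gene en2, best known from the midbrain, had 66.1 and 157 at 0.002 mg/L, against 3.82, 28.3 and 20.04 at 0 mg/L (2.84 ± 0.75, adjusted p = 0.0440). The vasotocin receptor gene v1ar1 had 172 and 224 at 0.002 mg/L, against 60.5, 48.6 and 55.5 at 0 mg/L (1.83 ± 0.39, adjusted p = 0.0291). None of these 3 passed with replicate 2 at 0.002 mg/L, with adjusted p from 0.0701 to 0.0994.

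The 3 loci named Metazoa_SRP, the signal recognition particle RNA, also rose, by 2.28 to 2.71. Loci of 1 name may share reads, and how such reads were counted is unknown here, so their values are uncertain. Among the most abundant rises the unnamed gene ENSORLG00000018113 had 19532 and 23267 normalized reads at 0.002 mg/L, against 7063, 8589 and 7594 at 0 mg/L (1.46 ± 0.21, adjusted p = 0.0128). The ubiquitin ligase family gene trim69 had 13805 and 17393 at 0.002 mg/L, against 5028, 6745 and 7530 at 0 mg/L (1.29 ± 0.27, adjusted p = 0.0291). Replicate 2 at 0.002 mg/L was below all 3 libraries at 0 mg/L for both genes, at 3438 and 2228, and for 107 of the 349 rises in all. That library was below them for 53% of all genes, a larger share than among the rises.

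The next comparison asked whether the lower concentration differed from the higher one. Its differences used no 0 mg/L library, but the spread behind its intervals and p-values was estimated from all 17 libraries. Between 0.002 and 0.02 mg/L in the control lineage limma called 0 of 18792 genes (0%), with 899 at an unadjusted p under 0.05 and a lowest adjusted p of 0.2298. edgeR called 0 and DESeq2 32. For c-fos the values were 7982 and 2516 normalized reads at 0.002 mg/L, against 1108, 1558 and 1139 at 0.02 mg/L. The difference, 0.002 minus 0.02, was 1.84 with a 95% interval from -1.13 to 4.80. For fosb it was 3.91, with an interval from 1.77 to 6.05 (adjusted p = 0.641): 2974 and 585 at 0.002 mg/L, against 103, 111 and 57.5 at 0.02 mg/L. For fn1b the difference was -1.29, with an interval from -2.27 to -0.31 (adjusted p = 0.901).

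The last comparison asked whether the response at 0.002 mg/L depended on ancestry. In the BPA lineage 0 genes were called at 0.002 against 0 mg/L, with 1795 at an unadjusted p under 0.05. The interaction itself, the response of the control lineage minus that of the BPA lineage, was called for 169 genes, 52 positive (0.277%) and 117 negative (0.623%). Of these, 48 were among the 349 rises and 83 among the 514 falls of the control lineage, an overlap that the shared libraries favour in advance. With replicate 2 at 0.002 mg/L 0 were called, and without single libraries the count ran from 0 to 1196, so these calls rest on single libraries.

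Genes that rose in the control lineage tended to have negative differences in the BPA lineage, whose libraries are all separate. Of the 349 rises 62 had a positive BPA lineage difference, or 17.8%, against 45% of all genes. Their median there was -0.19, against -0.05 for all genes. Of the 514 falls 281 were negative in the BPA lineage, or 54.7%, against 55.0% of all genes.

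The genes racgap1 and rfx2 show the contrast in levels. In the BPA lineage racgap1 had 1372, 1315 and 963 normalized reads at 0.002 mg/L, against 563, 299 and 770 at 0 mg/L, so that the libraries at 0.002 mg/L were higher there and lower in the control lineage (interaction -2.98 ± 0.52, adjusted p = 0.0315). In the same lineage rfx2 had 688, 676 and 398 at 0.002 mg/L, against 265, 120 and 344 at 0 mg/L (interaction -3.35 ± 0.59, adjusted p = 0.0315). For both genes the 0 mg/L libraries of the control lineage were the highest of the 6 groups' libraries.

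For fzd3a the BPA lineage had 1027, 1202 and 1287 normalized reads at 0.002 mg/L, against 1602, 1946 and 1291 at 0 mg/L (interaction 1.76 ± 0.34, adjusted p = 0.0348). For c-fos it had 2195, 2679 and 299 at 0.002 mg/L, against 4751, 1824 and 165 at 0 mg/L, and the interaction of 6.07 ± 1.84 did not pass (adjusted p = 0.0871). All c-fos libraries of the BPA lineage and at 0.02 mg/L in the control lineage exceeded the 3 control lineage libraries at 0 mg/L, which were the lowest.

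**Figure D5:**
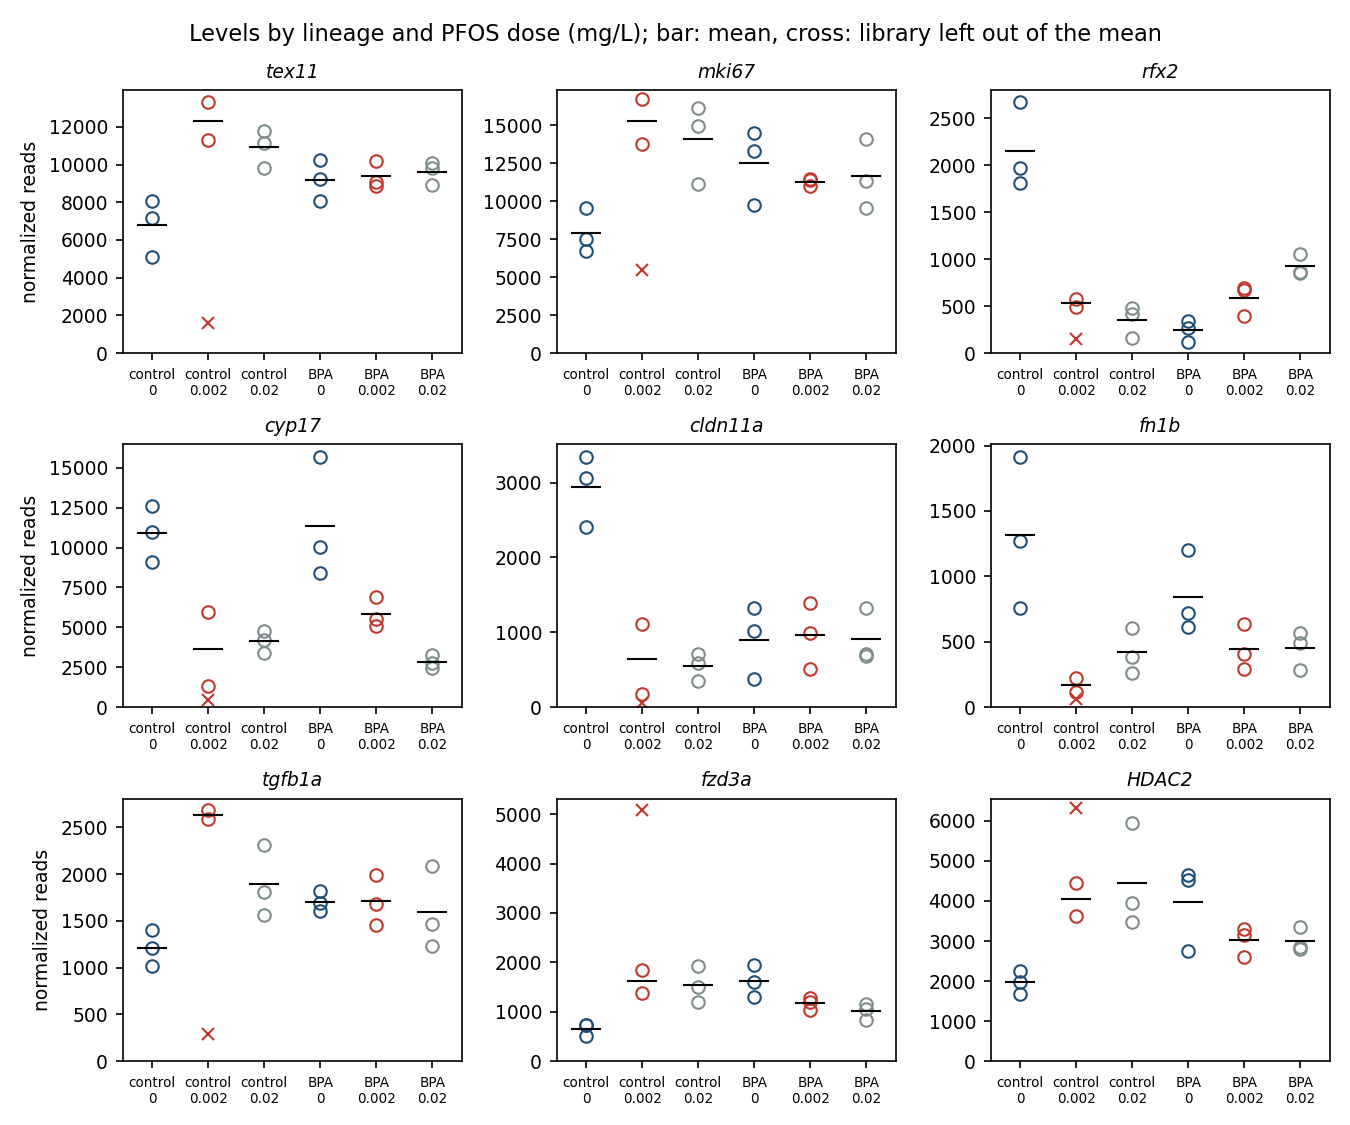
Normalized reads (vertical linear axis from 0) of 9 called genes in each library by lineage and PFOS concentration in mg/L; open circles are libraries, bars are group means and the cross is replicate 2 at 0.002 mg/L, left out of the mean. The control lineage at 0 mg/L stands apart for rfx2, fzd3a and HDAC2, whose 3 libraries there lie at 1814 to 2666, 499 to 727 and 1669 to 2249.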

How the data were processed

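RNA was extracted from testes with a Zymo Quick RNA/DNA kit and sequenced from NEBNext Ultra II RNA libraries, per the labels' protocols. Per the submitters' processing notes, fastp 0.23.2, STAR 2.7.7a and DESeq2 1.34.0 were used; for the build, annotation, read counter and strand, the settings are not given in the sources here, so close paralogs and overlapping genes carry that uncertainty. The table deposited by the authors holds normalized signal values of 22941 genes. All values (100%, tolerance 0.01) were whole multiples of 1 step per library, as read counts divided by 1 size factor each would be, which gave back the reads for count tools and depths of 23.7 to 47.7 M reads.

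Genes with a mean of at least 10 over the 18 libraries (18792) were tested on log2(value + 1) with limma 3.58.1 in R 4.3.3, with 6 group means, an intensity trend, robust moderation and Benjamini-Hochberg adjustment at 0.05, two-sided. Edges of intervals are 95% limits. The filter and size factors came from all 18 libraries. The fit was tested on simulated data with known changes. The simulated noise was independent between genes, so that test does not cover shifts that many genes of a library share. Comparisons were 0.002 against 0 mg/L, 0.002 against 0.02 mg/L and the interaction with lineage. Alternatives were all 18 libraries, a pseudocount of 5, no filter, TMM scaling, only the groups compared, edgeR 4.0.16, DESeq2 1.42.0, a replicate block, the gut and kidney level as a term, a log2 difference of at least 1, each library left out and, added after seeing the data, replicate 2 as the sole 0 mg/L library of the control lineage.

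The libraries, gene lists and tests were chosen with earlier results of these data known, so no list is independent evidence. Lists are described by counts and medians without a test. A symbol matched with or without a paralog letter, or through a RefSeq synonym. A list or library level is the mean of log2(value + 1) over members, relative to the 17-library mean. Named genes are, among calls with a symbol, a mean of at least 50 and groups that do not overlap, the 15 largest rises and falls; the 5 most abundant calls each way; calls that survive each left-out 0 mg/L library; and up to 6 called and 2 other members per list. Other members printed as not called were chosen after their values were seen. A planned count of promoter motifs was not run because no sequences were used here. The file has no coordinates.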

Additional observations from a re-analysis of the deposited data

Results flagged for a closer look

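The response to 0.002 mg/L was called different between the lineages, by the interaction term in limma at an adjusted p under 0.05, for 52 genes with a positive and 117 with a negative interaction. These calls rest on single libraries, and they did not hold with all 18 libraries or with the gut and kidney level as a term. Among the named genes the positive interactions on the log2 scale were birc5b 4.37, lmo1 3.38, vsig10l 3.17 and itm2cb 2.87, with smaller ones for fzd3a (1.76), ENSORLG00000018113 (1.62), ENSORLG00000029663 (1.41) and cox4i2 (1.39). The negative ones were cldn15la -5.37, zgc:109949 -5.29, rfx2 -3.35, racgap1 -2.98, cyp1c2 -2.88 and actl6a -2.65. For birc5b the BPA lineage had 19.8, 40.3 and 35.2 normalized reads at 0.002 mg/L, against 66.6, 92.0 and 100.8 at 0 mg/L, a difference that was not called (adjusted p = 0.463 from limma). For actl6a it had 849, 584 and 483 at 0.002 mg/L, against 243, 223 and 308 at 0 mg/L. For cldn15la both BPA lineage groups were near 0, at 6.09, 3.04 and 3.91 normalized reads at 0.002 mg/L, against 10.1, 12.2 and 6.02 at 0 mg/L. In the control lineage it had 5.62 and 5.02 at 0.002 mg/L, against 1675, 155 and 496 at 0 mg/L. It is a member of the gut list, and those 0 mg/L libraries were uneven in gut and kidney level. The part of gut tissue in this interaction was not tested.

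The library left out of the 17-library fit, replicate 2 at 0.002 mg/L, had an oocyte and ovary list level of 7.36 on the log2 scale, against -0.91 to -0.45 in the 3 libraries at 0 mg/L. Among its members the egg-coat gene zp3f.1 had 205014 normalized reads there, against 54.8 and 147 in the other libraries of its group and 8.28, 12.1 and 60.7 at 0 mg/L.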

How the results depend on the processing

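The count of 863 genes for 0.002 against 0 mg/L was 1476 from all 18 libraries, 156 with only the groups compared, 2458 with DESeq2, 261 with the replicate block, 1 with the gut and kidney level as a term and 1 with replicate 2 as the sole 0 mg/L library, an alternative chosen after seeing the data. It ran from 4 to 1401 with 1 library left out at a time. A pseudocount of 5 gave 847, no filter 677, TMM scaling 916, edgeR 691 and a log2 difference of at least 1 gave 668. The 0 calls between 0.002 and 0.02 mg/L became 32 with DESeq2 and ran from 0 to 8 with 1 library left out, and the other alternatives gave 0. The 169 interactions became 0 from all 18 libraries, 90 without a filter, 1853 with only the groups compared, 57 with edgeR, 1690 with DESeq2, 7 with the replicate block, 0 with the gut and kidney term and 1 with the sole 0 mg/L library, and ran from 0 to 1196 with 1 library left out. The cause of these changes was not tested.

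Of the 79 named genes, ENSORLG00000024176 (1.197) and tex11 (-0.10) changed sign with all 18 libraries, and 26 others lost their call. With the gut and kidney term, and with the sole 0 mg/L library, all 79 lost it; without replicate 1 at 0 mg/L 77 did, and without replicate 3 at 0.002 mg/L 78. Under the replicate block 41 of the 79 lost their call. Deviations of same-numbered libraries from their group means had correlations of 0.02 for replicate 1 and 0.06 for replicate 3. The deviations of the 2 libraries at 0.002 mg/L mirror each other and other groups were not examined. These values therefore cannot decide whether same-numbered libraries are paired. With n = 2 at 0.002 mg/L, fits that leave out 1 of these assume that the lone library varies like the other groups.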

Other observations

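Several genes were low in replicates 1 and 3 at 0.002 mg/L and very high in replicate 2, the library with oocyte transcripts. Of the 514 falls 83 lay above all 3 libraries at 0 mg/L in that library. Over all genes 35.7% did, a larger share than among the falls. The gene btr12, of the tripartite-motif family, had 1873 normalized reads in that library and 1.41 and 4.19 in the others at 0.002 mg/L, against 158, 13.8 and 194 at 0 mg/L. The short-chain dehydrogenase gene dhrs13b.1 had 672 in it and 8.43 and 2.51 in the others at 0.002 mg/L, against 314, 13.8 and 121 at 0 mg/L. The unnamed gene ENSORLG00000024176 had 164831 in it and 163 and 220 in the others at 0.002 mg/L, against 1604, 423 and 730 at 0 mg/L.

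The complement gene c7b, whose product takes part in the membrane attack complex, was the sole gene called with the gut and kidney level as a term, and it is named after its value was seen. It had 43.6 and 28.5 normalized reads at 0.002 mg/L, against 69.4, 891 and 310 at 0 mg/L, a difference of -2.89 ± 0.67 (adjusted p = 0.0314 from limma). With the term the difference was -5.07 (adjusted p = 0.00306), and its highest value stood in the 0 mg/L library with the lowest gut and kidney level.

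The lectican gene bcan, for a matrix proteoglycan best known from brain, was among the most abundant falls, with 2922 and 2420 normalized reads at 0.002 mg/L, against 5930, 6361 and 5467 at 0 mg/L (-1.15 ± 0.29, adjusted p = 0.0399). Replicate 2 at 0.002 mg/L had 871, and with it the gene was still called (adjusted p = 0.0289).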
